A study of Danio rerio with 14 samples.

Results

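Shield-stage (6 hpf) zebrafish embryos that lack the ligand Bmp7 were compared with wild-type embryos of the same stage by RNA sequencing of whole embryos. The comparison rests on 4 of the 14 libraries of the series, chosen by their labels: 2 libraries of bmp7-/- embryos and 2 of wild-type embryos, each made from 40 pooled embryos with no treatment. The mutants carry the allele sb1aub of bmp7a and, by the study's methods, came from homozygous adults, while the line given for wild-type is TU. In the count table the mutant libraries are headed Aub-/- and their counterparts Aub-/+, which reads as heterozygous, whereas the labels and the methods say wild-type, the name kept here. Mutant and wild-type embryos thus had different parents, so the mutation and the background of the line or the parents cannot be told apart in any difference below. The other libraries are 4 of the same genotypes at 70% epiboly (8 hpf) and 6 of bmp7 mutants treated at 4 hpf with cycloheximide (CHX, a translation inhibitor), 3 of which also received BMP2/7 protein. Neither labels nor methods say whether replicates came from separate crosses, so the p-values measure the spread between these libraries, which may be technical.

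bmp7a itself, the mutated gene, was low in both libraries labelled bmp7-/-. The transcript (RefSeq NM_131321, chromosome 11) stood at 2.85 and 1.63 CPM in the bmp7 mutant libraries, against 56.4 and 52.3 CPM in the wild-type libraries (CPM, counts scaled to a common library total with TMM factors). This is a log2 fold change -4.59, standard error 0.34, adjusted p = 0.000328 by the quasi-likelihood test of edgeR. The genotypes did not overlap, and the direction was that of the labels. This level cannot tell wild-type from heterozygous embryos. In the untreated libraries of 8 hpf, bmp7a had a mean of 0.595 CPM in mutants, against 36.9 CPM in wild-type. In the mutant libraries treated with CHX, which were scaled in a separate fit, it was higher, with means of 22.4 CPM under CHX and 31.3 CPM under CHX with BMP2/7.

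Bone Morphogenetic Proteins (BMPs) are secreted ligands of the TGFβ family that signal through type I and type II serine/threonine kinase receptors to phosphorylate receptor-regulated Smads, which enter the nucleus with the co-Smad Smad4. In the zebrafish gastrula Bmp2b and Bmp7a act as a heterodimer on the ventral side, and Chordin, secreted by the dorsal organizer, binds the ligands and blocks them there. High signaling gives epidermis and ventral mesoderm, and embryos without it are dorsalized, with expanded neural tissue. In bulk libraries of whole embryos, fewer cells of a type and less RNA per cell cannot be told apart.

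The 4 libraries held 13725192 and 12816993 counts in bmp7 mutants, against 19549488 and 23153881 in wild-type. Replicates differed by a median of 0.279 on the log2 scale across genes in mutants and 0.299 in wild-type, and libraries of different genotype by 0.415 to 0.560. As a rough look at the stage, 10 genes of the early gastrula were taken, 9 of which are in the table. Their presence cannot show that the genotypes were matched in stage. All 9 were expressed in both genotypes, among them the mesoderm gene ta with 886 and 534 CPM in the bmp7 mutant libraries, against 468 and 496 CPM in the wild-type libraries, and tbx16, a T-box gene of the mesoderm, alone was called (log2 fold change -0.79, adjusted p = 0.031, called in 3 of 8 fits that each left out 1 library). Of 26 genes of later tissues (blood, muscle, neurons, lens, pancreas), 16 are in the table and 10 of these had too few reads to be tested. Of the 6 tested, gap43, a neuronal growth gene, and actc1b, a muscle actin, were called higher, with 55 counts in mutants against 12 in wild-type for gap43 and 57 counts against 15 for actc1b. Both calls were lost in 5 of 8 such fits, with an adjusted p up to 0.193 and 0.23 without bmp7 mutant replicate 2.

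At 6 hpf, 1548 of 10029 genes tested (15.4%) differed between bmp7 mutants and wild-type at an adjusted p under 0.05, 912 of them lower (9.09%) and 636 higher (6.34%) in mutants. The lower genes had larger differences. Their median log2 fold change was -1.71, a 3.28-fold difference, and 358 of them differed at least 4-fold and 73 at least 16-fold, with genes at 0 counts in mutants set at their lower bound. The higher genes had a median log2 fold change of 1.24 (2.37-fold), with 147 at least 4-fold and 21 at least 16-fold. In mutants 80 of the lower genes held at most 3 counts over both libraries, while 19 of the higher genes did so in wild-type. Over all genes tested the median log2 fold change was -0.04. Counts of called members of the gene lists below are to be read beside the shares of 9.09% lower and 6.34% higher. The lists were written with earlier results of these data known. Some members, such as bmp4, szl, ved and foxi1, are also targets that the study chose in part on these libraries. The shares of the lists are thus descriptive and not independent evidence of direction.

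**Figure D1:**
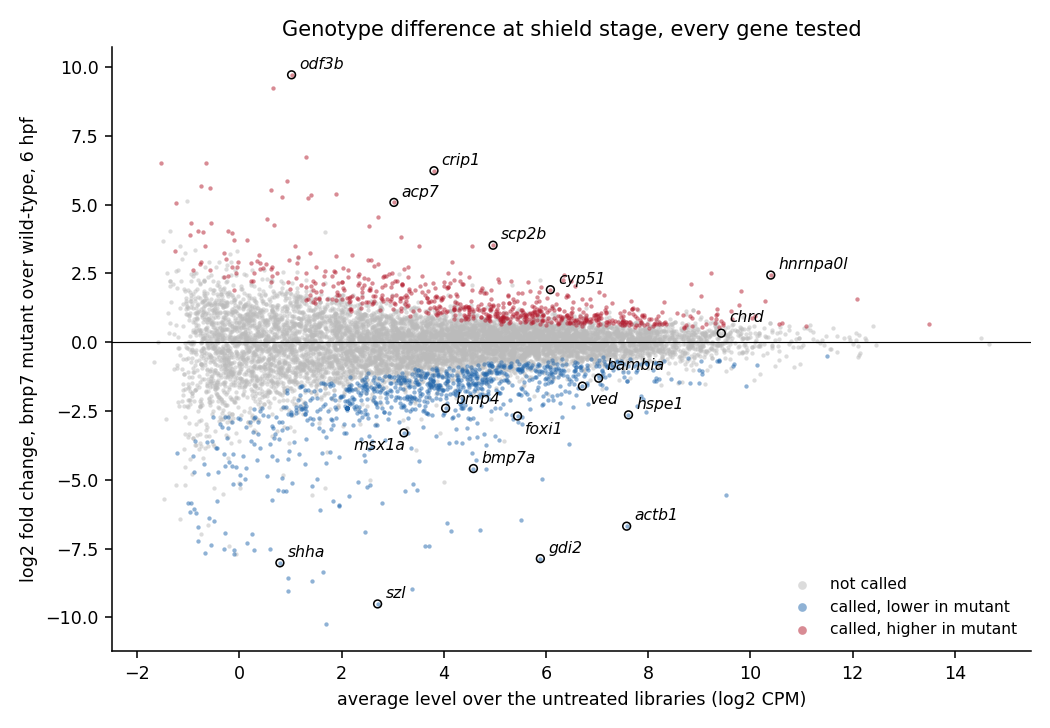
Log2 fold change of bmp7 mutants over wild-type at 6 hpf (y axis) against the average level over the 8 untreated libraries (x axis, log2 CPM), with a point for each of 10029 genes. Blue points are the 912 genes called lower in mutants, red points the 636 called higher and grey points the others. Circled genes are named, and szl, shha and odf3b lie where a genotype has 0 counts, so their height rests on the prior count of the fit.

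The direction of the calls varied with expression level. With the genes divided by average level into 4 classes of about equal number, 6.14% of the lowest class were called lower and 3.35% higher in mutants. The second class had 12.2% lower and 5.62% higher, and the third 11.2% lower and 7.66% higher. In the highest class the order turned, with 6.86% lower and 8.74% higher. Wild-type libraries were deeper than mutant libraries, and with wild-type counts thinned to the mean mutant total 1520 genes were called, 873 lower and 647 higher. Whether the change of direction with level depends on depth was not tested, as the thinned calls were not divided by level.

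**Figure D2:**
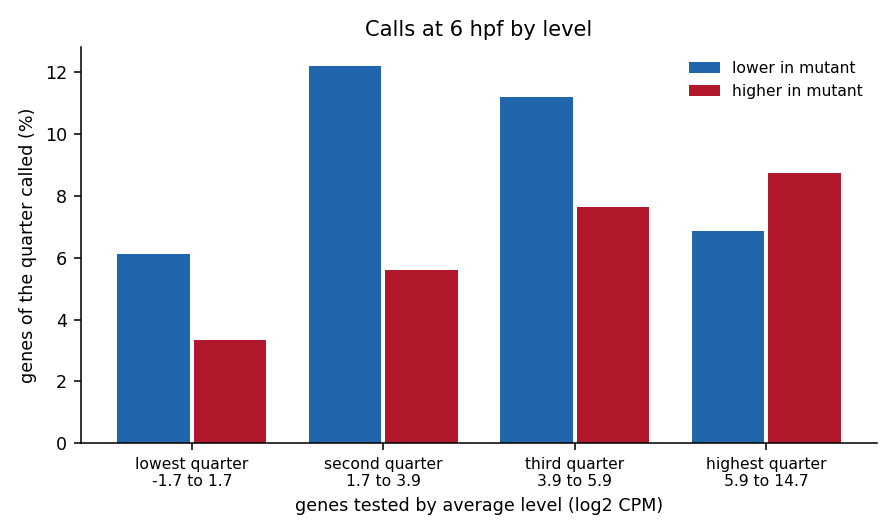
Share of genes called lower (blue) and higher (red) in bmp7 mutants at 6 hpf (y axis, percent of the genes of a class), in 4 classes of average level (x axis, log2 CPM). Lower calls outnumber higher calls in all but the highest class, where 6.86% were lower and 8.74% higher.

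The number of calls depended on single libraries. It was 262 without bmp7 mutant replicate 2, 577 without bmp7 mutant replicate 1, 482 without wild-type replicate 1 and 1314 without wild-type replicate 2 at 6 hpf. The spread is estimated over both stages. The count also fell without either mutant library of 8 hpf, but changed little without either wild-type library of that stage. The cause was not tested. Fitted without the 8 hpf libraries, the 4 libraries gave 854 calls, 520 lower and 334 higher. In all 8 fits that left out 1 library, 95 of the lower genes (10.4%) and 93 of the higher genes (14.6%) kept their call.

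Of the BMP ligands, 14 of 17 listed are in the table and 7 had enough reads to be tested. Besides bmp7a, bmp4 was called lower in mutants and none was called higher. bmp4, which is expressed ventrally and is itself induced by BMP signaling, stood at 5.16 and 3.74 CPM in the bmp7 mutant libraries, against 21.2 and 25.8 CPM in the wild-type libraries. Both mutant libraries lay below both wild-type libraries (log2 fold change -2.40, standard error 0.32, adjusted p = 0.00432), and the call held in all 8 fits with a library left out. gdf3, a maternal ligand that partners Nodal proteins, pointed the other way with 83.4 and 72.7 CPM in the bmp7 mutant libraries, against 42.1 and 35.4 CPM in the wild-type libraries, but did not pass the test (adjusted p = 0.0523). admp, a BMP-like ligand of the organizer, had 53.3 and 113.1 CPM in the bmp7 mutant libraries, against 47 and 78.8 CPM in the wild-type libraries. Its genotypes overlapped, as did those of bmp15, bmp16 and gdf6a, whose adjusted p were 0.294, 0.55 and 0.711. bmp2b, the heterodimer partner of bmp7a, had 1 count in mutants and 0 counts in wild-type in the transcript of this table, so nothing can be said of it. The 7 ligands had a median log2 fold change of -0.49, beside -0.04 over all genes.

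Among 13 tested extracellular regulators of BMP, 2 were called lower (15.4%, beside 9.09% over all genes) and 0 higher. Their median log2 fold change was -0.41. szl (Sizzled), a secreted inhibitor of the Tolloid-type proteases and a ventral BMP target, had 0 counts in both mutant libraries, against 240 counts in wild-type. Its levels were 0 and 0 CPM in the bmp7 mutant libraries, against 6.97 and 4.65 CPM in the wild-type libraries, at least 48.0-fold lower in mutants against 3 counts over the group (adjusted p = 0.00326), a call kept in all 8 fits. twsg1b, a Twisted gastrulation protein that binds BMP and Chordin, had 15.7 and 11.7 CPM in the bmp7 mutant libraries, against 53 and 35.9 CPM in the wild-type libraries (log2 fold change -1.70, adjusted p = 0.0113). Its call was lost without bmp7 mutant replicate 2 (adjusted p = 0.0768) and without wild-type replicate 1 (0.0525).

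The proteases that cleave Chordin did not pass the test at this stage. bmp1a had 25 and 23.6 CPM in the bmp7 mutant libraries, against 37.9 and 38.6 CPM in the wild-type libraries. Mutants thus lay below wild-type (adjusted p = 0.0657 by edgeR). bmp1b pointed the other way (adjusted p = 0.443 by edgeR), with log2 fold changes from 0.43 to 0.70 when 1 library was left out. tll1 (Tolloid) had 1 count in mutants, against 64 in wild-type, a ratio of wild-type to mutant of 38.4 with a 95% counting interval of 6.65 to 1539, but its wild-type libraries differed widely, at 3.06 and 0.258 CPM (adjusted p = 0.0688). chrd, the dorsal antagonist Chordin, had 411 and 674 CPM in the bmp7 mutant libraries, against 398 and 467 CPM in the wild-type libraries. Its genotypes overlapped and its adjusted p was 0.367. nog1 (Noggin) and bmper (Crossveinless-2) had log2 fold changes of 0.41 and -0.41, with adjusted p of 0.175 and 0.181.

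The transduction machinery of the pathway was more often lower than higher. Of 22 receptors, Smads and Ski-type corepressors tested, 6 were called lower (27.3%) and 1 higher, and in 14 both mutant libraries lay below both wild-type libraries and in 3 above. Over all genes the libraries of the genotypes did not overlap in 61.7%, with mutants below in 32.5% and above in 29.2%. The median log2 fold change was -0.77. Without bmp7 mutant replicate 2 the lower calls fell to 1. bambia, which encodes the membrane pseudoreceptor Bambi that dampens BMP and related signals, had 91.6 and 59.5 CPM in the bmp7 mutant libraries, against 185 and 189 CPM in the wild-type libraries. Both mutant libraries lay well below wild-type (log2 fold change -1.31, standard error 0.22, adjusted p = 0.00909), and the call held in all 8 fits. skilb, a SnoN-type corepressor of Smads, had 22.8 and 18.4 CPM in the bmp7 mutant libraries, against 57.5 and 46 CPM in the wild-type libraries (log2 fold change -1.33, adjusted p = 0.0159), and was not called without bmp7 mutant replicate 2 (adjusted p = 0.097) or wild-type replicate 1 (0.0769).

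The remaining called members had smaller or less stable differences. smad4a, a co-Smad, had 41.2 and 30.1 CPM in the bmp7 mutant libraries, against 67 and 67.4 CPM in the wild-type libraries (log2 fold change -0.92, adjusted p = 0.0267). The type II receptor acvr2ba had 48.5 and 37 CPM in the bmp7 mutant libraries, against 69.5 and 87.7 CPM in the wild-type libraries (log2 fold change -0.88, adjusted p = 0.0284). The type II receptor acvr2aa and the type I receptor bmpr1aa had log2 fold changes of -1.24 and -1.58 (adjusted p = 0.046 and 0.0431). These 4 calls held in 3 or 4 of the 8 fits, with adjusted p up to 0.14 and 0.149 for the first pair without bmp7 mutant replicate 2, and up to 0.305 and 0.274 for the second pair without wild-type replicate 1. skia, a Ski-type corepressor, was the only member called higher, at 65.7 and 58.7 CPM in the bmp7 mutant libraries, against 32.6 and 35.4 CPM in the wild-type libraries (log2 fold change 0.87, adjusted p = 0.0231), and held in 2 of 8 fits, with an adjusted p of 0.106 without wild-type replicate 1.

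Receptor-regulated and inhibitory Smads stayed short of the threshold. smad5, the main transducer in the gastrula, had 147 and 93.4 CPM in the bmp7 mutant libraries, against 238 and 187 CPM in the wild-type libraries (adjusted p = 0.0695), with no overlap of the genotypes. smad6b and smad7, inhibitory Smads, had log2 fold changes of -1.65 and -0.91 (adjusted p = 0.0518 and 0.092). smad9, another receptor-regulated Smad, had 3.7 and 3.58 CPM in the bmp7 mutant libraries, against 6.81 and 13.6 CPM in the wild-type libraries (adjusted p = 0.0566). In smad5, smad6b, smad7 and smad9 both mutant libraries lay below both wild-type libraries. smad6a, another inhibitory Smad, was not called (adjusted p = 0.741 by edgeR). Its log2 fold changes ran from -0.64 to 0.07 when 1 library was left out. acvr1l, the type I receptor Alk8, overlapped between genotypes (adjusted p = 0.303).

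**Figure D3:**
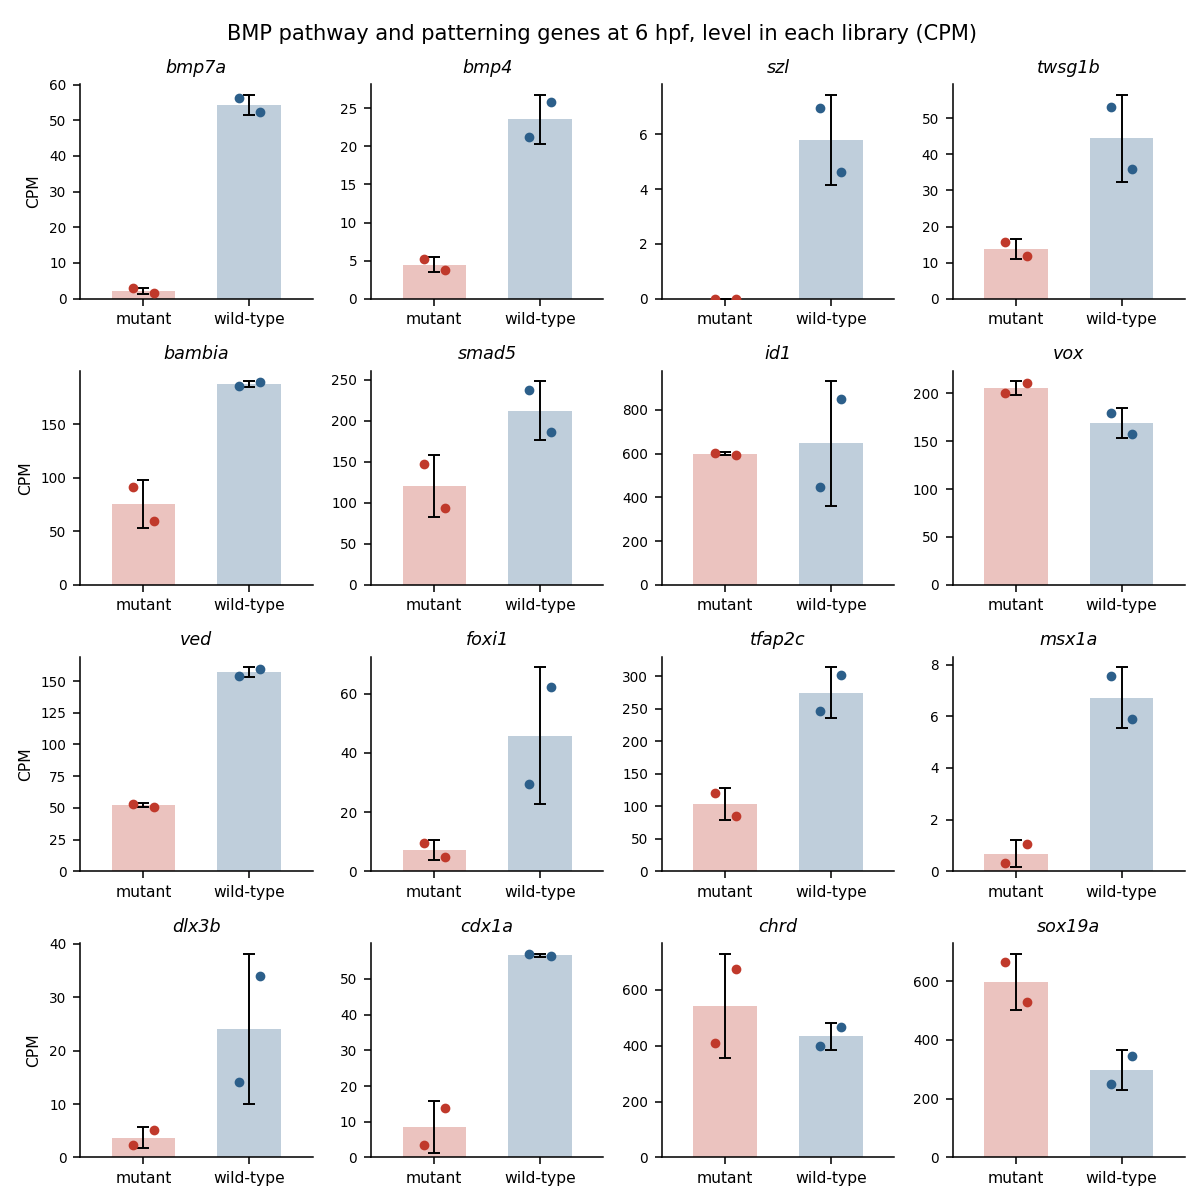
Level (y axis, CPM) of 16 genes at 6 hpf in bmp7 mutants (red, left) and wild-type (blue, right). Points are the 2 libraries of each genotype, bars their mean and error bars the SD. bmp7a, szl, bambia, ved and cdx1a are low in both mutant libraries, while the points of id1 and chrd overlap.

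The Id genes and the ventral repressors, which are widely used as readouts of BMP signaling, mostly did not pass the test at this stage. The Id genes encode helix-loop-helix proteins that inhibit basic helix-loop-helix factors, and edgeR called 0 of the 5, and 0 in each of the 8 fits with a library left out. id1 had 604 and 595 CPM in the bmp7 mutant libraries, against 446 and 848 CPM in the wild-type libraries, with the mutant libraries between the wild-type ones (log2 fold change -0.11, adjusted p = 0.821). id3 lay above wild-type in both mutant libraries, with 168 and 162 CPM in the bmp7 mutant libraries, against 131 and 103 CPM in the wild-type libraries (adjusted p = 0.0842), and id4 below, with 2.85 and 3.98 CPM in the bmp7 mutant libraries, against 6.07 and 11.3 CPM in the wild-type libraries (adjusted p = 0.0768). id2a and id2b overlapped between the genotypes.

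vox, vent and ved encode homeodomain repressors that exclude dorsal gene expression from the ventral side, and among them ved alone was called. ved stood at 53.1 and 50.8 CPM in the bmp7 mutant libraries, against 154 and 159.8 CPM in the wild-type libraries (log2 fold change -1.60, standard error 0.18, adjusted p = 0.0021), and kept its call in all 8 fits. vox had 199.9 and 211 CPM in the bmp7 mutant libraries, against 179.7 and 158 CPM in the wild-type libraries, with both mutant libraries above wild-type (adjusted p = 0.272). vent was uneven between replicates of both genotypes, with 24.9 and 5.44 CPM in the bmp7 mutant libraries, against 27.1 and 6.41 CPM in the wild-type libraries (adjusted p = 0.908).

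Regulators of non-neural ectoderm were lower in mutants where they were called. Of 11 tested genes of this list, 3 were called lower (27.3%, beside 9.09% over all genes) and 0 higher. Their median log2 fold change was -0.88. foxi1, a forkhead factor of the placodal and epidermal ionocyte lineages, had 9.47 and 4.79 CPM in the bmp7 mutant libraries, against 29.6 and 62.2 CPM in the wild-type libraries (log2 fold change -2.68, standard error 0.41, adjusted p = 0.0068), a call kept in all 8 fits. The AP-2 factor tfap2c had 120.8 and 85.4 CPM in the bmp7 mutant libraries, against 247 and 302 CPM in the wild-type libraries. Its difference was called (log2 fold change -1.41, adjusted p = 0.00795) except without bmp7 mutant replicate 2 (adjusted p = 0.0525). gata2a, a GATA factor of ventral ectoderm and blood, had 53.4 and 54.1 CPM in the bmp7 mutant libraries, against 85.5 and 153 CPM in the wild-type libraries (log2 fold change -1.15, adjusted p = 0.025), and was called in 5 of 8 fits, with an adjusted p of 0.112 without bmp7 mutant replicate 2. Without that library foxi1 alone of the list was called.

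Other members of this list did not pass the test. tfap2a and gata3, which act in the same tissue and were picked after their values were seen, had log2 fold changes of 0.14 and 0.32 (adjusted p = 0.574 and 0.324). klf2b, a Krüppel-like factor, had 140.2 and 145 CPM in the bmp7 mutant libraries, against 198 and 228 CPM in the wild-type libraries (adjusted p = 0.0775). tp63, which maintains epidermal progenitors, was barely expressed yet, with 15 counts in mutants and 41 in wild-type.

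Msx and Dlx genes, homeobox genes of the ventral ectoderm and the neural plate border, were lower where they were called. Of 8 tested, 3 were called lower (37.5%, beside 9.09% over all genes) and 0 higher. In 6 both mutant libraries lay below both wild-type libraries, beside 32.5% of all genes. The median log2 fold change was -1.38 with the 3 genes that had 0 counts in a genotype at their bound or left out where no bound exists, and -2.34 as fitted. msx1a had 0.308 and 1.06 CPM in the bmp7 mutant libraries, against 7.55 and 5.89 CPM in the wild-type libraries, or 17 counts in mutants against 280 in wild-type (log2 fold change -3.30, standard error 0.53, adjusted p = 0.00795), and was called in all 8 fits. msx3 stood at 4.7 and 3.49 CPM in the bmp7 mutant libraries, against 18.3 and 12 CPM in the wild-type libraries (log2 fold change -1.89, adjusted p = 0.0096), a call lost without bmp7 mutant replicate 2 (adjusted p = 0.0655). dlx3b, needed for the preplacodal region, had 2.31 and 5.12 CPM in the bmp7 mutant libraries, against 14.1 and 34.1 CPM in the wild-type libraries (log2 fold change -2.70, adjusted p = 0.0106), and missed the threshold without bmp7 mutant replicate 1 (adjusted p = 0.0514). tbx3a, a T-box repressor, showed a similar difference, with 0.77 and 0.488 CPM in the bmp7 mutant libraries, against 10.1 and 4.77 CPM in the wild-type libraries (log2 fold change -3.54, adjusted p = 0.0106), and was not called without bmp7 mutant replicate 2 (adjusted p = 0.0749).

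In ventral mesoderm all calls were lower in mutants. Of 13 tested genes of ventral mesoderm and blood, 5 were called lower (38.5%, beside 9.09% over all genes) and 0 higher. Their median log2 fold change was -1.08. cdx1a, a Caudal-type factor of the posterior body, had 3.46 and 13.7 CPM in the bmp7 mutant libraries, against 56.9 and 56.3 CPM in the wild-type libraries. The mutant libraries were uneven but both far below wild-type (log2 fold change -2.72, standard error 0.49, adjusted p = 0.0113), and all 8 fits called the gene. npas4l, which starts the endothelial and blood program, had 0.693 and 0.406 CPM in the bmp7 mutant libraries, against 5.76 and 3.31 CPM in the wild-type libraries (log2 fold change -3.02, adjusted p = 0.0268). gata4, a GATA factor of the heart and gut, had 3 counts in mutants, against 97 in wild-type, a ratio of wild-type to mutant of 19.4 with a 95% counting interval of 6.44 to 95.7 (adjusted p = 0.031).

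eve1, an even-skipped gene of the ventral margin, had 74.9 and 55.3 CPM in the bmp7 mutant libraries, against 157 and 103 CPM in the wild-type libraries (log2 fold change -0.995, adjusted p = 0.0371). npas4l, gata4 and eve1 were called in 5, 3 and 3 of 8 fits, with adjusted p of 0.144, 0.159 and 0.186 without bmp7 mutant replicate 2, and without bmp7 mutant replicate 1 a single gene of the list stayed called. The list of tailbud and paraxial mesoderm shares eve1 and cdx1a with this list, and adds only tbx16 to the lower calls among 16 tested. Its median log2 fold change was 0.03, a sign that turned to -0.01 when counts were scaled by library size alone.

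Members of the dorsal organizer list were called in both directions, but the list is mixed. Its only higher call was tdgf1, which the Nodal and endoderm list also holds, and lhx5, a gene of the forebrain, was among its lower calls. Of 17 tested, 3 were called lower (17.6%) and 1 higher (5.88%), beside 9.09% and 6.34% over all genes. Their median log2 fold change was 0.17. shha (Sonic hedgehog), expressed in the dorsal midline, had 0 counts in both mutant libraries, against 89 counts in wild-type. In CPM it stood at 0 and 0 CPM in the bmp7 mutant libraries, against 1.43 and 2.67 CPM in the wild-type libraries, at least 17.8-fold lower in mutants against 3 counts over the group (adjusted p = 0.0081), and was called in all 8 fits. noto, a homeobox gene of the notochord precursors picked after its values were seen, overlapped between genotypes, with 94.4 and 95.2 CPM in the bmp7 mutant libraries, against 74.7 and 102 CPM in the wild-type libraries (adjusted p = 0.791).

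The other called genes of the organizer list were less stable, of which only tdgf1 and lhx5 are described here. tdgf1 (one-eyed pinhead), the Nodal co-receptor, was higher in mutants at 775 and 775 CPM in the bmp7 mutant libraries, against 272 and 451 CPM in the wild-type libraries (log2 fold change 1.099, adjusted p = 0.0184), a call kept in 5 of 8 fits, with an adjusted p up to 0.0784 without bmp7 mutant replicate 2. lhx5, a LIM-homeobox gene of the forebrain, was lower, with 7.7 and 9.18 CPM in the bmp7 mutant libraries, against 27.8 and 19 CPM in the wild-type libraries (log2 fold change -1.47, adjusted p = 0.0205), also in 5 of 8 fits, with an adjusted p up to 0.107 without wild-type replicate 1.

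Neural ectoderm genes had few calls but mostly positive fold changes. Of 26 tested genes, 2 were called higher and 1 lower, and in 12 both mutant libraries lay above both wild-type libraries against 2 below, beside 29.2% above and 32.5% below over all genes. The median log2 fold change was 0.49. sox19a, a SoxB1 factor of the neural plate, had 666 and 529.9 CPM in the bmp7 mutant libraries, against 251 and 346 CPM in the wild-type libraries (log2 fold change 1.002, adjusted p = 0.0257). foxb1a, a forkhead gene of the neural plate, had 118.9 and 178 CPM in the bmp7 mutant libraries, against 67.3 and 72.1 CPM in the wild-type libraries (log2 fold change 1.09, adjusted p = 0.0299). Both mutant libraries exceeded both wild-type libraries in these genes, yet the calls held in only 5 and 3 of 8 fits, with the highest adjusted p of 0.115 for sox19a without wild-type replicate 1 and of 0.163 for foxb1a without bmp7 mutant replicate 2. pax6b, a paired-box gene of the eye and brain, was the lower one, with 0 counts in mutants, against 20 in wild-type (adjusted p = 0.0405), and held in 4 of 8 fits, with an adjusted p up to 0.149 without bmp7 mutant replicate 2.

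**Figure D4:**
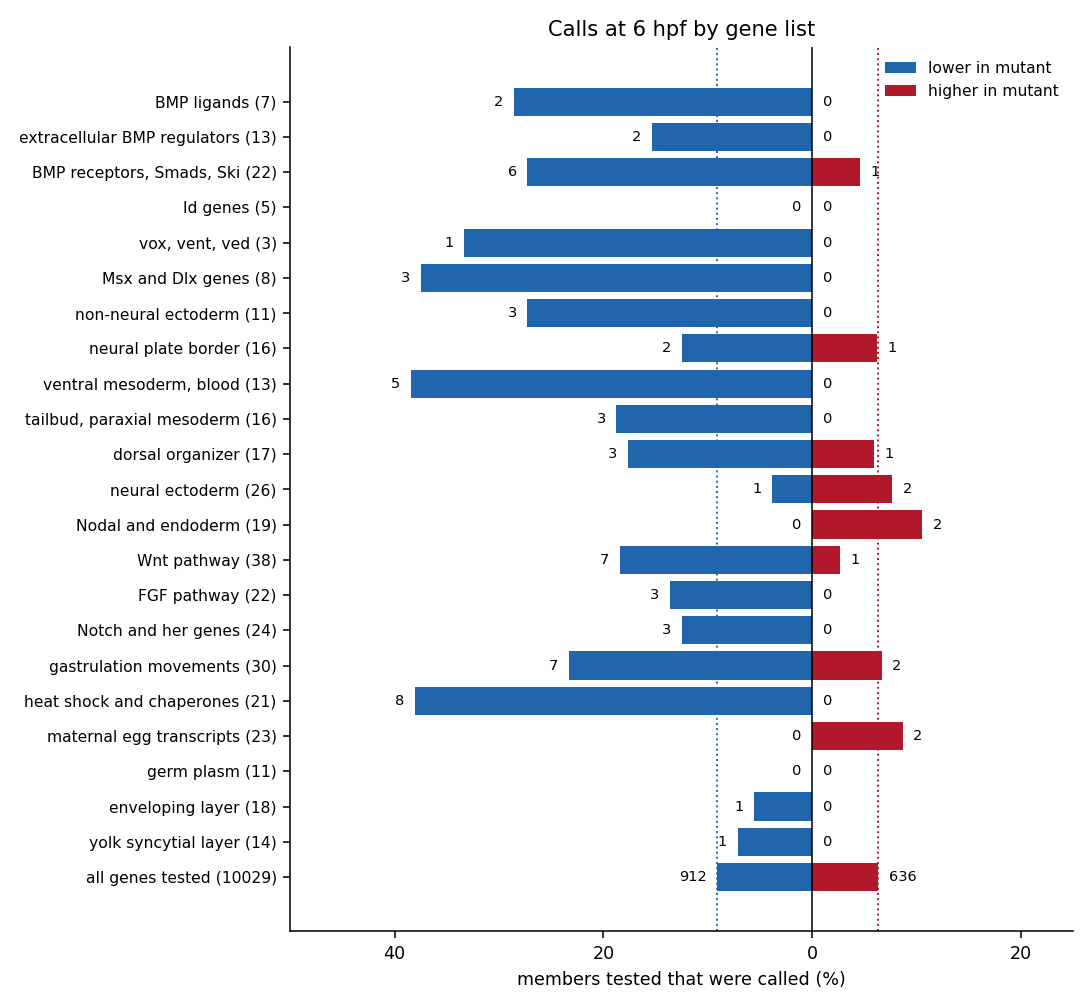
Share of tested members called at 6 hpf (x axis, percent) for 22 gene lists and for all genes, with the number tested in parentheses. Blue bars to the left are members lower in bmp7 mutants, red bars to the right members higher, and the numbers beside the bars count them. Dotted lines mark the shares over all genes, 9.09% lower and 6.34% higher, and most ventral lists pass the lower line without a higher call. The lists were written with earlier results of these data known, so their shares are not independent evidence.

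The study lists 57 genes as raised and, in the copy used here, 14 as lowered by BMP, chosen in part on these same libraries, so their counts are not independent evidence of direction. Of the 57, 25 were called lower in mutants at 6 hpf (43.9%, beside 9.09% over all genes) and 0 higher. In 46 both mutant libraries lay below both wild-type libraries, beside 32.5% of all genes. Their median log2 fold change was -1.36 with genes at 0 counts at their bound. Of the 14, 9 were called higher and 0 lower, with a median of 1.82. Without bmp7 mutant replicate 2 these counts were 11 and 3. Thus 32 of the 57 did not pass the test at this stage, among them vox, vent, id2a, id3, id4, klf2b, smad6b, smad7 and smad9.

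Besides the genes already named, tle3a and crabp2b were lower members of the listed set. tle3a, a Groucho-type corepressor, had 5.47 and 6.5 CPM in the bmp7 mutant libraries, against 20.1 and 25.1 CPM in the wild-type libraries (log2 fold change -1.92, standard error 0.27, adjusted p = 0.00532), called in all 8 fits. crabp2b, a carrier of retinoic acid in cells, had 389 and 482 CPM in the bmp7 mutant libraries, against 747 and 846 CPM in the wild-type libraries (log2 fold change -0.87, adjusted p = 0.0142), a small but even difference that was lost only without bmp7 mutant replicate 1 (adjusted p = 0.0694). Of the genes listed as lowered by BMP, the cytochrome P450 gene cyp2p9 had 23.6 and 26.7 CPM in the bmp7 mutant libraries, against 6.5 and 5.63 CPM in the wild-type libraries (log2 fold change 2.05, standard error 0.29, adjusted p = 0.00506). grk7b, a G protein-coupled receptor kinase, had 6.62 and 8.29 CPM in the bmp7 mutant libraries, against 1.64 and 1.68 CPM in the wild-type libraries (log2 fold change 2.16, adjusted p = 0.00774). Both were above wild-type in both mutant libraries and were called in all 8 fits. ip6k2a, an inositol hexakisphosphate kinase, had 166 and 206 CPM in the bmp7 mutant libraries, against 53.6 and 52.3 CPM in the wild-type libraries (log2 fold change 1.81, adjusted p = 0.00909), a call lost only without bmp7 mutant replicate 2 (adjusted p = 0.0529).

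Fewer genes were called between bmp7 mutants and wild-type at 8 hpf, when 316 genes (3.15%) passed the test, 203 lower in mutants (2.02%) and the others higher (1.13%). Of the 912 genes lower at 6 hpf, 168 were also lower at 8 hpf (18.4%), and of the 636 higher genes 85 were also higher (13.4%). None was called in the opposite direction. Among genes not called at 6 hpf, 0.413% were lower and 0.33% higher at 8 hpf. Leaving out a library of 8 hpf lowered the total of 316 to 15.5% and 13.9% of that number for bmp7 mutant replicate 1 and 2, and to 37.0% and 35.1% for wild-type replicate 1 and 2. Other methods called more, namely 628 with no filter on low counts, 915 with DESeq2, 929 with the exact test of edgeR and 941 with the replicate number as a block. bmp7 mutant replicate 1 of 8 hpf was shallow, at 5034277 counts, against 19326577 in replicate 2. The stages were fitted together, so the estimates of spread are shared.

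BMP target genes differed in how the difference at 8 hpf compared with that at 6 hpf. Of the 25 genes listed as raised by BMP and called lower at 6 hpf, 12 had a fitted fold change further below 0 at 8 hpf and 13 did not, beside 136 of all 912 lower genes (14.9%). Both counts start from genes picked for their difference at 6 hpf. The listed genes were also chosen in part on the 8 hpf libraries, so the 2 counts are not on equal terms. The log2 fold change of foxi1 was -7.25 at 8 hpf, beside -2.68 at 6 hpf. That of bambia was -3.46, beside -1.31, and that of ved -3.13, beside -1.60. That of eve1 was -3.47 (adjusted p = 0.000553), beside -0.995. Going the other way, the log2 fold change at 8 hpf was -1.85 for cdx1a (adjusted p = 0.0665), beside -2.72 at 6 hpf, -2.03 for msx1a, beside -3.30, and -2.38 for dlx3b, beside -2.70. Some genes not called at 6 hpf were called lower at 8 hpf, namely vox (-1.13, adjusted p = 0.0132), id3 (-0.97, adjusted p = 0.0271), id4 (-3.97, adjusted p = 0.0109) and tfap2a (-1.21, adjusted p = 0.00807), while chrd was called higher (1.13, adjusted p = 0.0433).

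None of these differences between stages passed the test of the difference itself. For foxi1, bambia, eve1, ved, id3 and vox that test gave an adjusted p from 0.329 to 0.334. Over all genes edgeR called 0 at an adjusted p under 0.05, with 555 at an unadjusted p under 0.05. DESeq2 called 28, and edgeR called 6 without wild-type replicate 1 of 8 hpf.

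The CHX libraries ask which genes respond to BMP2/7 protein in bmp7 mutants when translation is blocked. With BMP2/7, 213 of 9444 genes tested differed (2.26%), 180 raised (1.91%) and 33 lowered (0.349%), and 750 with the replicate number as a block. The count was 89 without replicate 1 of CHX alone and 101 without replicate 1 of CHX with BMP2/7. Among 8934 genes tested in both designs, 1.61% were raised by BMP2/7 and 0.369% lowered (4.12% and 3.49% with the block). Of 780 genes lower in mutants at 6 hpf, 24 were raised (3.08%; 58, or 7.44%, with the block) and 0 lowered (19, or 2.44%, with the block). Of 607 genes higher in mutants, 6 were lowered (0.988%; 40, or 6.59%, with the block) and 4 raised (0.659%; 16, or 2.64%, with the block). Among genes not called at 6 hpf, 1.54% were raised and 0.358% lowered. Most genes were thus not called in either direction under CHX, whether or not they differed between the genotypes at 6 hpf.

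Single members differed in size between the designs. The study chose its listed targets in part by their change in these same CHX libraries, so the calls of listed genes here are not independent evidence. Listed genes include szl, foxi1, bmp4, bambia, dlx3b, smad6b, smad7, smad9, cyp2p9 and grk7b. szl, foxi1 and msx3 were raised by log2 fold changes of 4.45, 3.02 and 5.25 (adjusted p = 0.000177, 0.000336 and 0.000953), and cdx1a and dlx3b by 6.69 and 3.97 (adjusted p = 0.00297 and 0.00657). bmp4 and bambia were raised by 1.53 and 1.12 (adjusted p = 0.00919 and 0.00273). smad6b, smad7 and smad9, which missed the threshold at 6 hpf, were raised by 5.94, 1.88 and 3.46 (adjusted p = 0.00123, 0.000231 and 0.00527). bmp7a was not called (log2 fold change 0.48, adjusted p = 0.467, and 0.0879 with the block). cyp2p9 was lowered (-2.98, adjusted p = 0.0064), while grk7b was called only with the block (adjusted p = 0.064, and 0.00586 with the block).

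**Figure D5:**
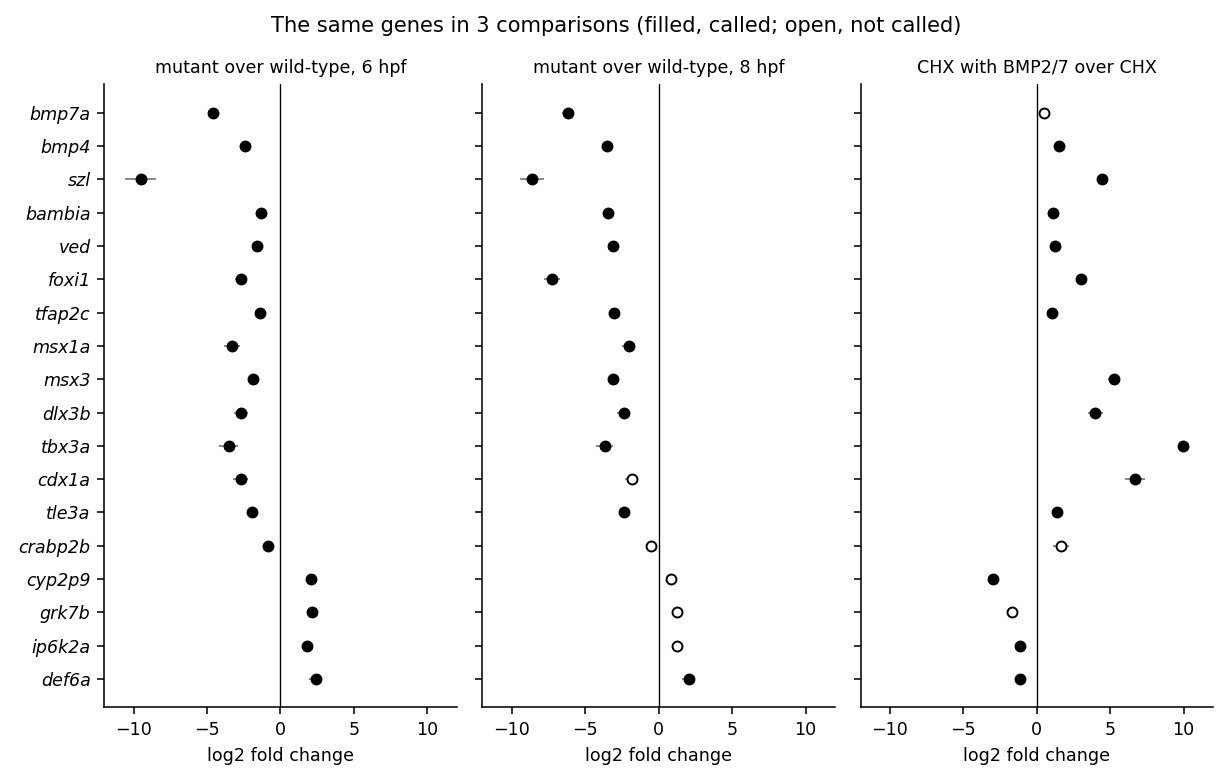
Log2 fold changes of 18 genes (x axis, with SE as error bars, some smaller than the symbol) in 3 comparisons, bmp7 mutants over wild-type at 6 hpf (left) and at 8 hpf (middle), and CHX with BMP2/7 over CHX alone in bmp7 mutants (right). Filled symbols passed an adjusted p under 0.05 without the replicate block, and msx1a was not tested under CHX. Genes below 0 in the left panel, such as szl and foxi1, lie above 0 in the right panel, and cyp2p9, grk7b, ip6k2a and def6a do the reverse. The study's lists of BMP targets, which hold these named genes, were drawn in part from these CHX libraries. The opposite signs of listed genes are thus not independent evidence.

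The largest differences of the comparison lay mostly outside the BMP pathway. Of the 73 lower genes that differed at least 16-fold, 41 (56.2%) were also lower at 8 hpf, beside 2.02% of all genes. Of the 21 higher genes 12 (57.1%) were also higher, beside 1.13%. Only 30 of these lower genes and 16 of these higher genes were tested under CHX. Of them edgeR called 1 lower gene (3.33%) and 0 higher genes, beside 2.26% of all genes tested under CHX. Such small counts do not set these genes apart from that share. actb1, a cytoplasmic beta-actin, had 4.23 and 3.9 CPM in the bmp7 mutant libraries, against 435 and 405 CPM in the wild-type libraries (log2 fold change -6.69, standard error 0.26, adjusted p = 6.55e-06). A second beta-actin gene, actb2, looked at after these values were seen, was not lower, with 6041 and 6546 CPM in the bmp7 mutant libraries, against 3808 and 4628 CPM in the wild-type libraries (adjusted p = 0.055). gdi2, which recycles Rab GTPases, had 0.539 and 0.569 CPM in the bmp7 mutant libraries, against 118.8 and 143 CPM in the wild-type libraries (log2 fold change -7.87, standard error 0.32, adjusted p = 6.55e-06). Whether reads of actb1 and actb2 were split between them in the counting was not tested. Both actb1 and gdi2 were also lower at 8 hpf, with log2 fold changes of -6.74 and -7.72.

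Further genes were nearly silent in mutants. prkcba, a protein kinase C gene, had 0 counts in mutants, against 393 in wild-type, at least 78.6-fold lower (adjusted p = 0.00301). tor4aa, of the torsin family, had 1 count in mutants, against 1039 in wild-type, a ratio of wild-type to mutant of 623 with a 95% counting interval of 111.6 to 24632. riok2, an atypical kinase of ribosome maturation, and chtf18, a clamp loader of sister chromatid cohesion, had 4 counts each in mutants, against 1238 and 1155 in wild-type. tsta3, an enzyme of GDP-fucose synthesis, had 13 and 13.7 CPM in the bmp7 mutant libraries, against 167 and 176 CPM in the wild-type libraries (log2 fold change -3.69, standard error 0.21, adjusted p = 7.13e-05). The zinc-finger genes znf1162, znf1156 and znf1147 and the P450 genes cyp2aa7 and cyp2aa8 were also among the largest or firmest differences, but belong to multigene families whose reads may be split between copies.

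Genes higher in mutants included some that were almost absent from wild-type. odf3b, a gene of the outer dense fibre family, had 6.85 and 6.5 CPM in the bmp7 mutant libraries, against 0 counts in wild-type, at least 93.9-fold higher in mutants against 3 counts over the group (adjusted p = 0.0021). crip1, a small LIM protein, had 46.7 and 29.1 CPM in the bmp7 mutant libraries, against 0.475 and 0.516 CPM in the wild-type libraries (log2 fold change 6.23, standard error 0.38, adjusted p = 0.000101). acp7, an acid phosphatase, had 25.4 and 22.9 CPM in the bmp7 mutant libraries, against 0.634 and 0.774 CPM in the wild-type libraries (log2 fold change 5.08, adjusted p = 0.000328). scp2b, a sterol carrier protein, stood at 92.7 and 63.3 CPM in the bmp7 mutant libraries, against 7.02 and 6.54 CPM in the wild-type libraries (log2 fold change 3.52, adjusted p = 0.000572). In all of these the genotypes lay far apart, and the calls held in all 8 fits.

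Abundant transcripts were among the firmest of the higher calls. hnrnpa0l, an RNA-binding protein, had 2704 and 2854 CPM in the bmp7 mutant libraries, against 444 and 582 CPM in the wild-type libraries (log2 fold change 2.44, standard error 0.21, adjusted p = 0.000723). ddx3b, a DEAD-box RNA helicase, had 1598 and 1735 CPM in the bmp7 mutant libraries, against 478 and 441 CPM in the wild-type libraries (log2 fold change 1.86, adjusted p = 0.0021). rrm2, the small subunit of ribonucleotide reductase, stood at 931 and 894 CPM in the bmp7 mutant libraries, against 283 and 290.4 CPM in the wild-type libraries (log2 fold change 1.67, adjusted p = 0.00164). These transcripts were high in both genotypes and again higher in mutants. bcat2 and pcca, enzymes of branched-chain amino acid and propionate breakdown, had log2 fold changes of 1.48 and 2.44 (adjusted p = 0.0021 and 0.00102).

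Chaperones were among the lists with lower calls alone. Of 21 tested heat shock and chaperone genes, 8 were called lower (38.1%) and 0 higher, with a median log2 fold change of -0.86, and 3 were called without bmp7 mutant replicate 2. hsp90b1 and hspa5, the main chaperones of the endoplasmic reticulum, were both called. hsp90b1 had 41.3 and 42.5 CPM in mutants, against 148 and 147 CPM in wild-type. hspa5 had 75.4 and 118.7 CPM in mutants, against 358 and 446 CPM in wild-type. Their log2 fold changes were -1.82 and -2.05 (adjusted p = 0.0021 and 0.00795). hspe1, a co-chaperonin of mitochondria, had 52.9 and 35 CPM in the bmp7 mutant libraries, against 211 and 338 CPM in the wild-type libraries (log2 fold change -2.64, standard error 0.30, adjusted p = 0.0021). All of these were called in all 8 fits. hsp90aa1.2, a stress-inducible cytosolic HSP90, differed most, with 53 and 10.6 CPM in the bmp7 mutant libraries, against 1895 and 1118 CPM in the wild-type libraries (log2 fold change -5.56, adjusted p = 0.0127), but was not called without bmp7 mutant replicate 2 (adjusted p = 0.0703). At 8 hpf 1 member of the list was lower, namely hsp90b1 (log2 fold change -1.03, adjusted p = 0.0313).

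Maternal egg transcripts, deposited in the oocyte and cleared as the embryo's own genome takes over, were more often above wild-type than below. Of 23 tested, 2 were called higher (8.70%) and 0 lower, and in 18 both mutant libraries lay above both wild-type libraries, with 0 below, beside 29.2% above and 32.5% below over all genes. The median log2 fold change was 0.87. The egg coat genes zp3 and zp2.2 were called, with 60.5 and 143 CPM in the bmp7 mutant libraries, against 33.5 and 38.5 CPM in the wild-type libraries for zp3 (log2 fold change 1.49, adjusted p = 0.0283) and 29.1 and 35.5 CPM in the bmp7 mutant libraries, against 6.76 and 13.4 CPM in the wild-type libraries for zp2.2 (log2 fold change 1.67, adjusted p = 0.034). They kept their calls in 5 and 3 of 8 fits and lost them without bmp7 mutant replicate 2 (adjusted p = 0.158 and 0.142) and wild-type replicate 1 (0.112 and 0.148).

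The FGF and Notch pathways had shares of lower calls near that of all genes (9.09%). Of 22 tested FGF pathway genes, 3 were called lower (13.6%) and 0 higher, among them the FGF receptors fgfr1a and fgfr1b. fgfr1b had 24.9 and 22.5 CPM in the bmp7 mutant libraries, against 95.1 and 58 CPM in the wild-type libraries (log2 fold change -1.69, adjusted p = 0.00774), and fgfr1a had 24.3 and 18.7 CPM in the bmp7 mutant libraries, against 51.2 and 49.2 CPM in the wild-type libraries (log2 fold change -1.22, adjusted p = 0.0117). Both missed the threshold without bmp7 mutant replicate 2 alone (adjusted p = 0.0551 and 0.0756). Of 24 Notch pathway and her genes, 3 were called lower (12.5%) and 0 higher, although their median log2 fold change was 0.36. mib1, the ubiquitin ligase that activates Notch ligands, had 36.5 and 32.9 CPM in the bmp7 mutant libraries, against 157 and 101 CPM in the wild-type libraries (log2 fold change -1.89, adjusted p = 0.00672), and was not called without bmp7 mutant replicate 2 (adjusted p = 0.0518). Without that library 0 genes of either list were called lower.

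Of 38 tested Wnt pathway genes, 7 were called lower and 1 higher, with a median log2 fold change of -0.05, and tle3a was the member called in all 8 fits. Of 19 Nodal and endoderm genes, 0 were called lower and 2 higher, tdgf1 and cxcr4a, a chemokine receptor. The call of cxcr4a (log2 fold change 0.61, adjusted p = 0.0486) held in none of the 8 fits.

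Of 30 genes of gastrulation movements, 7 were called lower (23.3%) and 2 higher (6.67%), beside 9.09% and 6.34% over all genes. snai1b, a zinc-finger repressor of cadherin expression in migrating mesoderm, had 1.15 and 0.813 CPM in the bmp7 mutant libraries, against 9.08 and 6.92 CPM in the wild-type libraries (log2 fold change -3.01, adjusted p = 0.0113), a call lost without bmp7 mutant replicate 2 (adjusted p = 0.079). gpc4, the heparan sulfate proteoglycan of the knypek mutant, had 43.5 and 37.1 CPM in the bmp7 mutant libraries, against 137 and 80.7 CPM in the wild-type libraries (log2 fold change -1.43, adjusted p = 0.0176), and held in 5 of 8 fits, with an adjusted p up to 0.105 without bmp7 mutant replicate 2.

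Of 40 tested genes of the extracellular matrix and its integrin receptors, 7 were called lower (17.5%) and 4 higher (10.0%). Over all genes these shares were 9.09% and 6.34%. The median log2 fold change of the list was -0.29, and fewer members were called lower without bmp7 mutant replicate 2. lama1, a laminin chain of the basement membrane, stood at 136 and 230.0 CPM in the bmp7 mutant libraries, against 529 and 403 CPM in the wild-type libraries (log2 fold change -1.35, standard error 0.25, adjusted p = 0.012). col15a1b, a collagen of basement membranes, was the reverse, with 76 counts in mutants against 3 in wild-type, a ratio of mutant to wild-type of 42.2 with a 95% counting interval of 13.9 to 209 (adjusted p = 0.00785). lama1 and col15a1b were called in all 8 fits.

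Among cadherins 19 of 36 tested genes were called lower, the highest share of lower calls among the 44 lists. Of the 19, however, 16 are pcdh2g protocadherins linked to each other by counts within 5% in every untreated library, so the list holds only 4 lower genes with separate counts. Their shared level is that of pcdh2g2, with 0.924 and 0.975 CPM in the bmp7 mutant libraries, against 3.86 and 6.06 CPM in the wild-type libraries (log2 fold change -2.38, adjusted p = 0.0106), not called without bmp7 mutant replicate 1 (adjusted p = 0.0537) or 2 (0.0655). pcdh18b, a protocadherin with its own counts, was higher in mutants at 14.3 and 12.2 CPM in the bmp7 mutant libraries, against 2.85 and 2.84 CPM in the wild-type libraries (log2 fold change 2.22, standard error 0.29, adjusted p = 0.00384), and was called in all 8 fits.

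Surface and yolk tissues had shares of lower calls near the 9.09% of all genes. Of 18 genes of the enveloping layer, the outer cover of the embryo, 1 was called lower (5.56%) and 0 higher. Of 14 genes of the yolk syncytial layer, which transcribes beneath the blastoderm, 1 was called lower (7.14%) and 0 higher. In 6 of these 14 both mutant libraries lay below both wild-type libraries and in 0 above, beside 32.5% and 29.2% of all genes. The median log2 fold change of the yolk syncytial list was -0.62. anxa1b, an annexin, was the called gene of the enveloping layer, with 75.7 and 71.7 CPM in the bmp7 mutant libraries, against 158 and 136 CPM in the wild-type libraries (log2 fold change -0.996, adjusted p = 0.0127), in 5 of 8 fits, with an adjusted p up to 0.0756 without bmp7 mutant replicate 2. mttp, which loads lipoproteins in the yolk syncytial layer, was uneven in wild-type, with 118.7 and 111.6 CPM in the bmp7 mutant libraries, against 961 and 202 CPM in the wild-type libraries (log2 fold change -2.34, adjusted p = 0.0302), and was called in 3 of 8 fits, not without bmp7 mutant replicate 2 (adjusted p = 0.142). Among 11 germ plasm genes edgeR called 0, and in 5 both mutant libraries lay above both wild-type libraries, beside 29.2% of all genes, as for nanos3, which primordial germ cells need, with 10.5 and 17.2 CPM in the bmp7 mutant libraries, against 5.12 and 7.18 CPM in the wild-type libraries (adjusted p = 0.0734).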

How the data were processed

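RNA sequencing of whole zebrafish embryos was analysed from the authors' table of raw read counts per RefSeq transcript. By the study's methods, stranded polyA libraries were aligned to GRCz11 with RUM and tested with edgeR, and the aligner version and counting strand were not given in the sources used here. The deposited table also holds normalized log2 values and the authors' comparisons (log2 fold changes with p-values and FDR, and mean levels in log2 CPM), which were not used. Its comparison headings name the genotypes in the opposite order to the library headings, and the library headings were used. The 14 count columns matched the 14 samples by name, and 14 date-like symbols were restored from transcript names.

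The 14532 transcripts (13830 symbols) were filtered with filterByExpr (minimum count 10), scaled with TMM and tested by quasi-likelihood in edgeR 4.0.16 (R 4.3.3). A single fit held the 8 untreated libraries in 4 groups, and another the 6 CHX libraries. p-values were adjusted by Benjamini-Hochberg over 10555 transcripts tested (9937 for CHX), with a threshold of 0.05. A gene is its transcript with the highest mean count. Fold changes are mutant over wild-type, or CHX with BMP2/7 over CHX, and tests are two-sided. A standard error is the fold change divided by the root of F. Where a genotype had 0 counts, the fold is a bound that takes 3 counts for the group as its floor. For 1 to 3 counts a ratio is given with a 95% exact interval. Bounds and intervals cover counting error only. The scripts were tested on simulated data.

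The naming rule took bmp7a, the 12 genes per direction with the largest difference among called genes of average log2 CPM of at least 1 whose genotypes do not overlap, the 12 per direction with the smallest p among those at least 2-fold different, the genes the study lists or names, all BMP pathway, Id and vox, vent and ved genes, and the 4 members with the smallest p of each of 44 lists. It gave 266 genes, of which not all are printed. Members and lists were chosen with earlier results of these data known. Genes with counts within 5% in every untreated library (149 pairs) may share reads. Chromosomes come from the RefSeq GRCz12tu gene table, to which 14179 transcripts matched. In the CHX libraries same-numbered replicates deviated together (r = 0.416, 0.757 and 0.647 for replicate 1, 2 and 3), so the numbers were taken to pair them and blocked values are given. Alternatives were relative log expression and library size in place of TMM, no filter, a minimum count of 50, DESeq2 1.42.0, the edgeR exact test, the replicate block, the 6 hpf libraries alone, 1 transcript per gene, other thresholds, thinned wild-type counts and each library left out.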

Additional observations from a re-analysis of the deposited data

How the results depend on the processing

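No alternative reversed the direction of a called gene named here, but scaling by library size alone turned the sign of list medians close to 0, namely those of tailbud and paraxial mesoderm (-0.01, and 0.03 with TMM), the enveloping layer (-0.01, and 0.05 with TMM) and retinoic acid genes (-0.02, and 0.01 with TMM). At 6 hpf the replicate block gave 2407 calls (1370 lower, 1037 higher in mutants), the 4 libraries at 6 hpf alone 854 (520 and 334) and an adjusted p under 0.01 224 (128 and 96), while 423 of the higher genes also differed at least 2-fold. Leaving out 1 library gave 262 to 1562 calls, with the fewest without bmp7 mutant replicate 2, when 137 were lower and the others higher. At 8 hpf the calls numbered 628 with no filter on low counts, 915 with DESeq2, 941 with the block and 929 with the edgeR exact test, and 44 to 465 with 1 library left out. Genes whose difference changed between stages numbered 3 with no filter, 28 with DESeq2 and 0 to 6 with 1 library left out. Under CHX a minimum count of 50 gave 138 calls, DESeq2 375, the block 750 and leaving out 1 library 89 to 192. With TMM replaced by library size the 6 hpf calls were 1000 lower and 550 higher, and with relative log expression 842 and 685. With the wild-type libraries thinned to the mean mutant total, an alternative chosen after seeing the data, 1520 genes were called. The cause of these shifts was not tested. Over the 266 named genes, 4395 of 4994 alternative values stayed on their side of the threshold, 190 passed it newly and 409 no longer passed it. Where a gene was called in the main or the alternative fit, 0 changed direction. Genes called in neither could change sign, as did vent, with log2 fold changes from -1.60 to 1.25 when 1 library was left out. Of the 164 named genes called, 61 were called under every alternative that tested them.

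The untreated replicate numbers are not stated to pair libraries. Deviations of same-numbered libraries from their group means correlated at r = 0.257 between genotypes at 6 hpf, -0.033 at 8 hpf, 0.381 between stages in mutants and 0.494 in wild-type, and with 2 libraries a group the block rests on these numbers alone. The 4 libraries at 6 hpf alone with the block, added after seeing the data, gave 1683 calls. With 2 libraries a group, a difference missed here is not shown to be absent, and genes with few counts, such as tll1, had intervals too wide to rank.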

Other observations

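Gene groups outside the BMP pathway are given here for 6 hpf, beside the shares over all genes of 9.09% lower and 6.34% higher. Several had shares near or under these. Of 187 tested solute carriers, 14 were called lower and 14 higher (7.49% each). Among the higher ones, slc25a55a, a mitochondrial carrier, had 228 and 233 CPM in mutants, against 60.1 and 80.9 CPM in wild-type (log2 fold change 1.71, adjusted p = 0.00436). slc7a14a, of the cationic amino acid transporter family, was nearly absent from wild-type, with 14.5 and 10.7 CPM in mutants, against 0.792 and 0.301 CPM in wild-type (log2 fold change 4.54, adjusted p = 0.00532). Both calls held in all 8 fits that left out 1 library.

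Claudins and other tight junction genes were called higher in 4 (16.7%) and lower in 1 (4.17%) of 24 tested. cldnk and cldna were higher, with log2 fold changes of 2.08 and 2.18 (adjusted p = 0.0106 and 0.0226 by edgeR). These 2 calls held in 6 of 8 fits each, with adjusted p up to 0.0685 and 0.121. In the cholesterol synthesis list, 1 of 20 was called higher and 1 lower (5.0% each). The higher one, cyp51, the lanosterol demethylase, had 135 and 131 CPM in mutants, against 30.6 and 40.3 CPM in wild-type (log2 fold change 1.91, adjusted p = 0.0021 by edgeR).

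Immune genes, which include histocompatibility genes, were called lower in 11 and higher in 1 of 73 tested. tlr5b, a receptor for bacterial flagellin, had 0.154 and 0.325 CPM in mutants, against 2.9 and 3.1 CPM in wild-type (log2 fold change -3.61, adjusted p = 0.00666). Of 83 tested zinc-finger genes named znf, 8 were called lower (9.64%) and 1 higher (1.2%), and copies of this family may share reads.

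Genes of protein synthesis and mitochondria were called in both directions. Of 65 translation factors, 5 were called higher (7.69%) and 2 lower (3.08%). eif4bb had 124.9 and 139.7 CPM in mutants, against 36.1 and 44.3 CPM in wild-type (log2 fold change 1.72, adjusted p = 0.00357 by edgeR). eif2s1b had 17.8 and 22.3 CPM in mutants, against 53 and 80.7 CPM in wild-type (log2 fold change -1.74, adjusted p = 0.00654 by edgeR). Of 80 respiratory chain genes, 4 were called higher (5.0%) and 3 lower (3.75%). uqcrc1, a core subunit of complex III, was nearly absent from mutants, with 0 and 0.488 CPM in mutants, against 14.3 and 13.8 CPM in wild-type (log2 fold change -5.83, adjusted p = 0.0113). Of 81 ribosomal protein genes, 2 were called higher (2.5%) and 1 lower (1.2%). In 24 both mutant libraries lay above both wild-type libraries against 3 below, beside 29.2% and 32.5% over all genes. Of 37 proteasome genes, 3 were called lower (8.11%) and 0 higher, with 21 below and 1 above.

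Calls at 6 hpf were found on every chromosome. By the order of genes in the GRCz12tu annotation, the share of tested genes called lay between 10.5% on chromosome 12 and 20.8% on chromosome 15. It was 17.2% on chromosome 11, which carries bmp7a. The share called with a fitted difference of at least 8-fold ran from 0.426% (2 genes) on chromosome 19 to 3.62% (11 genes) on chromosome 18. Of the 50 tested genes nearest to bmp7a, 25 on either side, 10 were called, 4 lower and 6 higher in mutants, beside 15.4% over all genes. Some genes named above lay near each other. actb1, prkcba and chtf18, on chromosome 1, had the order numbers 217, 227 and 237. scp2b, cyp2aa7 and cyp2aa8, on chromosome 23, had the order numbers 22891, 22901 and 22905. These genes were picked after their values were seen, and local grouping was not tested.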
